A study of Mus musculus with 9 samples.

Results

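The m6A reader genes analysed here are Ythdf1, Ythdf2, Ythdf3, Ythdc1, Ythdc2, Igf2bp1, Igf2bp2, Igf2bp3 and Hnrnpa2b1. They were chosen by name, as the rows of the count table whose Ensembl identifier maps to one of these symbols, and all 9 were found among the 48526 genes of the table. The samples were primary cultures of neural stem cells (NSCs) from the subependymal zone (SEZ), the neurogenic niche that lines the lateral ventricle, of wild-type C57BL/6 mice (C57BL/6J in the study's methods) that were 2 to 4 months old. All groups shared this genotype. NSCs at 0 h were compared with cells collected 1 h and 6 h after differentiation had been induced on an adhesive substrate without EGF, with FGF kept in the medium. With 3 replicates for each time point, 9 libraries of stranded mRNA were sequenced, and every replicate number occurs once per time point. The labels do not say whether a number stands for an animal, a culture or a day, so p-values measure the spread between these libraries, which may in part be technical.

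m6A is a methyl group on the N6 position of adenosine and the most abundant internal modification of mRNA. It is written by a nuclear methyltransferase complex, it can be removed by demethylases, and its effect on a transcript depends on the reader proteins that bind it. The YTH proteins hold the methylated base in a pocket of their YTH domain. The cytoplasmic members Ythdf1, Ythdf2 and Ythdf3 have been linked to translation and decay, with Ythdf2 recruiting the CCR4-NOT deadenylase. Ythdc1 is the nuclear YTH reader, linked to splicing and export, and Ythdc2 is a YTH protein with an RNA helicase domain. The IGF2BP proteins stabilise and localise their target mRNAs, and Hnrnpa2b1 is an abundant nuclear ribonucleoprotein linked to microRNA processing and splicing. In the developing and adult brain, m6A and its readers are known for their part in the timing of neural progenitor differentiation.

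The libraries held between 65871454 and 105592597 counts. All 10 NSC markers examined reached a mean of 1 CPM, with a summed level between 6790 and 9650 CPM in each library (CPM are counts scaled to the library size after TMM normalisation). Of 5 markers of microglia and 3 of endothelium, 0 reached a mean of 1 CPM. Of 4 astrocyte markers 4 reached it, of 5 oligodendrocyte lineage markers 2, and of 2 ependymal markers 1. Their sums lay between 67.2 and 231 CPM, 12.6 and 27.8 CPM, and 36.4 and 90.9 CPM in this order. Among the astrocyte markers Aldh1l1 had 61.7 to 211.8 CPM at 0 h, and Gfap 1.06 to 1.63 CPM. The sum of 5 neuronal markers lay between 19.5 and 38.6 CPM at 0 h, between 26.0 and 41.7 CPM at 1 h, and between 58.4 and 121 CPM at 6 h. Most of that sum was Syt1, and Dcx, the neuroblast marker of the list, remained between 0.570 and 1.78 CPM in all 9 libraries. In the edgeR fit described below, Dcx did not differ detectably between 6 h and 0 h (log2 difference -0.35, adjusted p = 0.291). Every other neuronal marker of the list was higher at 6 h. Syt1 rose by 1.63 (adjusted p = 2.95e-07) and Rbfox3 by 1.23 (adjusted p = 6.77e-05). Tubb3 rose by 1.06 (adjusted p = 2.07e-06) and Snap25 by 0.50 (adjusted p = 0.0190). The part of this rise in the differences at 6 h was not tested, and in such bulk samples fewer cells of a type and less RNA per cell cannot be told apart.

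Differences between time points were fitted with edgeR on the 18858 genes that passed its filter, with the replicate number as a block, so that each fold change is measured within replicates. Of the 9 readers 8 passed the filter, Igf2bp1 being the exception. The fold changes below are on the log2 scale with their standard error (SE), p-values were adjusted over all 18858 genes by the Benjamini-Hochberg method, and a gene is called at an adjusted p under 0.05. Both later time points are compared with the same 0 h libraries, so the comparisons are not independent of each other.

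Reader levels, compared per length as RPKM (CPM per kilobase of all annotated exons of the gene), spanned several orders of magnitude. Hnrnpa2b1 was the most abundant, with a mean of 251.8 RPKM over the 9 libraries, 10.1 times the next gene. Ythdf1 followed with 24.86 RPKM, Ythdf3 with 20.65 RPKM and Ythdf2 with 16.65 RPKM. The ranges over libraries of these paralogues overlapped between neighbours, from 22.47 to 26.82 RPKM for Ythdf1, from 17.45 to 23.22 RPKM for Ythdf3 and from 13.53 to 18.35 RPKM for Ythdf2. Below them came Ythdc1 (6.303 RPKM), Ythdc2 (3.984 RPKM), Igf2bp2 (3.591 RPKM) and Igf2bp3 (0.4296 RPKM). Ythdc2 and Igf2bp2 overlapped as well, since Igf2bp2 lay between 1.051 and 8.541 RPKM. The place of Ythdc1 depends on the length used, because its annotated exons add up to 13651 bp while its transcript with the longest coding sequence has 2960 nt. Per length of that transcript, a choice made after the data had been seen, Ythdc1 had 29.07 RPKM and came after Ythdf1 (36.28 RPKM) and before Ythdf3 (22.46 RPKM). By the same measure Igf2bp2 (6.817 RPKM) came before Ythdc2 (4.902 RPKM), the reverse of their order above, and their ranges again overlapped.

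**Figure D1:**
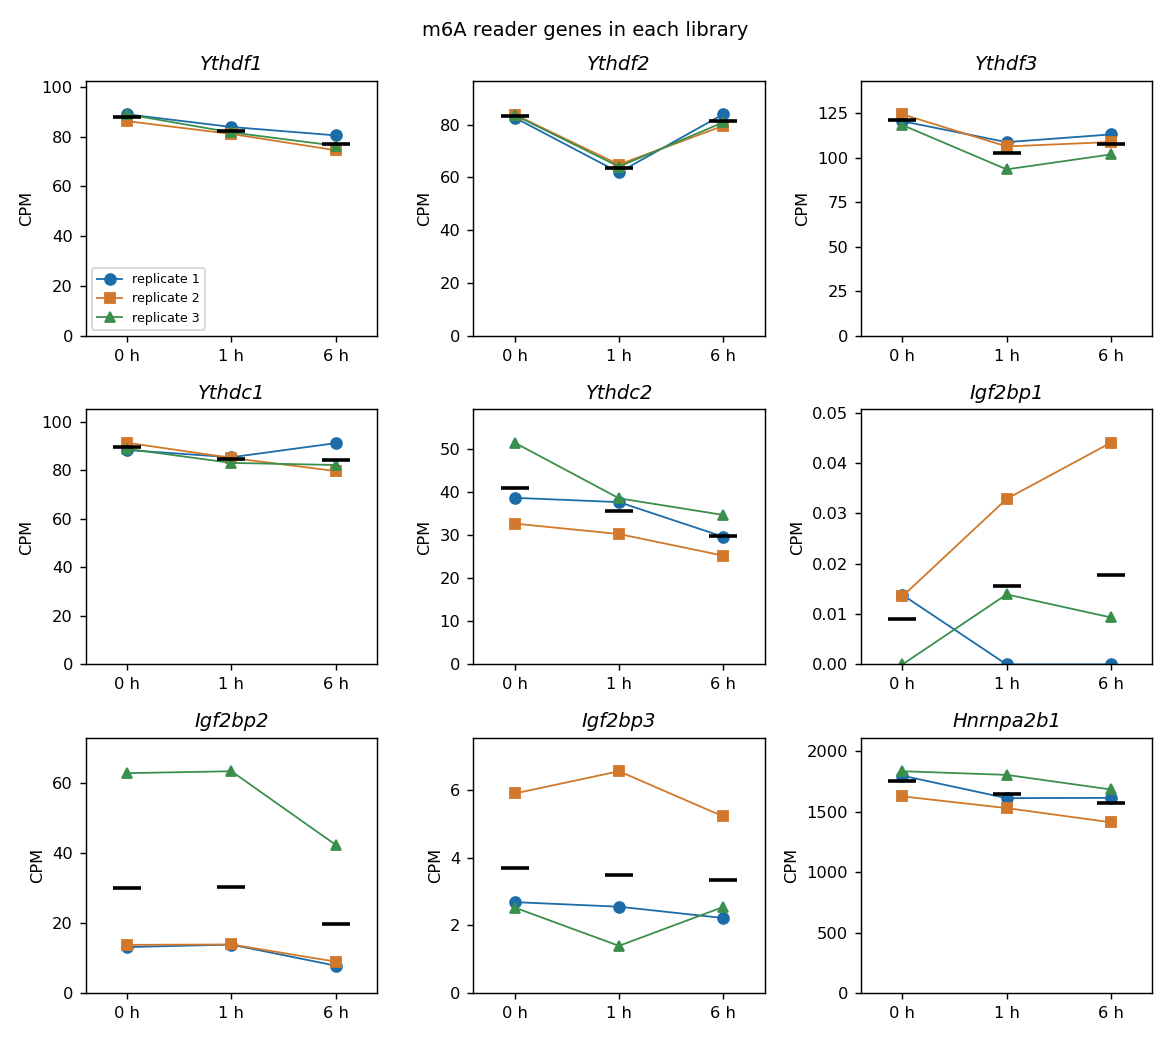
CPM of the 9 m6A reader genes at the 3 time points (0 h, 1 h, 6 h). Points joined by a line are libraries with the same replicate number and the black bars are the means of 3 libraries. Ythdf2 was lower at 1 h only, Igf2bp2 was higher in replicate 3 than in the others at every time point, and the axis of Igf2bp1 ends near 0.05 CPM.

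Ythdf2, the reader that brings methylated mRNAs to the deadenylation machinery, was transiently lower. The gene lies on chromosome 4 (132184912 to 132212303, minus strand, GRCm38). Its level in replicates 1, 2 and 3 was 82.6, 83.8 and 83.6 CPM at 0 h, 61.9, 64.9 and 64.1 CPM at 1 h, and 83.9, 79.5 and 80.8 CPM at 6 h. All libraries of 1 h were thus below all others, whereas those of 0 h and 6 h overlapped. Ythdf2 fell by 23.7% from 0 h to 1 h (log2 fold change -0.39, SE 0.048, adjusted p = 0.000654, edgeR), lower in 3 of 3 replicates. It rose by 28.0% from 1 h to 6 h (0.36, SE 0.048, adjusted p = 0.000111), higher in 3 of 3 replicates. The difference between 6 h and 0 h was -0.03 (SE 0.048, adjusted p = 0.633). The replicates hardly differed in this gene. Without the replicate block the rise at 6 h was still called (adjusted p = 0.0237) and the fall at 1 h was not (adjusted p = 0.105).

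Ythdf1, the paralogue linked to translation of methylated mRNAs, decreased at 6 h. On chromosome 2 (180904377 to 180920949, minus strand), it was measured at 88.9, 86.2 and 88.9 CPM at 0 h, 83.8, 81.0 and 81.7 CPM at 1 h, and 80.5, 74.5 and 76.3 CPM at 6 h. The 3 time points did not overlap, and each replicate had a lower value at each later time. The fall from 0 h to 6 h was 12.4% (-0.19, SE 0.046, adjusted p = 0.00570, edgeR). The steps from 0 h to 1 h (-0.10, SE 0.046, adjusted p = 0.276) and from 1 h to 6 h (-0.09, SE 0.046, adjusted p = 0.137) were not called. The call at 6 h was lost without the replicate block (adjusted p = 0.135) and without the 3 libraries of replicate 2 (adjusted p = 0.104).

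Ythdf3, which shares targets with both other paralogues, was lower at 1 h and 6 h than at 0 h. It lies on chromosome 3 (16183212 to 16217037, plus strand) and had 120.6, 124.5 and 118.5 CPM at 0 h, 108.9, 106.4 and 93.6 CPM at 1 h, and 113.2, 108.9 and 102.0 CPM at 6 h. The libraries of 0 h were above all others, and those of 1 h and 6 h overlapped. Ythdf3 fell by 15.2% at 1 h (-0.24, SE 0.050, adjusted p = 0.0191) and by 11.0% at 6 h (-0.17, SE 0.050, adjusted p = 0.0192, edgeR), lower in 3 of 3 replicates both times. From 1 h to 6 h the difference was 0.07 (SE 0.050, adjusted p = 0.299). These 2 calls were less stable than those of Ythdf2. Without the replicate block the adjusted p was 1.00 at 1 h and 0.314 at 6 h. The call at 1 h was lost without replicate 1 or 2 of 1 h (adjusted p = 0.0509 and 0.0619) and without replicate 2 or 3 of 0 h (0.152 and 0.163). The call at 6 h was lost without replicate 2 of 0 h (0.105), replicate 2 of 6 h (0.104) or replicate 3 of 0 h (0.123), and when the GC content and length trends of the libraries were removed (0.0734).

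The composition of the YTHDF pool is given as a description, since its test cannot reach the threshold with 3 libraries a group. The share of each gene in their summed RPKM is a ratio within a library, so it does not depend on library scaling. Ythdf2 made up 27.1% ± 0.207 at 0 h, 24.0% ± 1.06 at 1 h and 29.1% ± 0.442 at 6 h (mean ± SD, n = 3). Ythdf1 made up 39.4% ± 0.794, 42.8% ± 1.05 and 38.0% ± 0.609, and Ythdf3 33.5% ± 0.767, 33.1% ± 1.76 and 32.9% ± 0.974. The Ythdf2 share was thus lowest at 1 h and highest at 6 h, with no overlap between time points, while the share of Ythdf3 overlapped between all of them. For the share of Ythdf2 the exact two-sided permutation test gave p = 0.1 in each of the 3 comparisons, which is the smallest value that 3 against 3 libraries allow (0.36 after Benjamini-Hochberg adjustment over the 18 share tests computed). The summed YTHDF level was 67.37, 67.52 and 67.19 RPKM in replicates 1 to 3 at 0 h, 59.11, 58.47 and 56.09 RPKM at 1 h, and 63.72, 60.17 and 59.71 RPKM at 6 h. All 1 h values were below all 6 h values and these below all 0 h values, a description that was not tested.

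**Figure D2:**
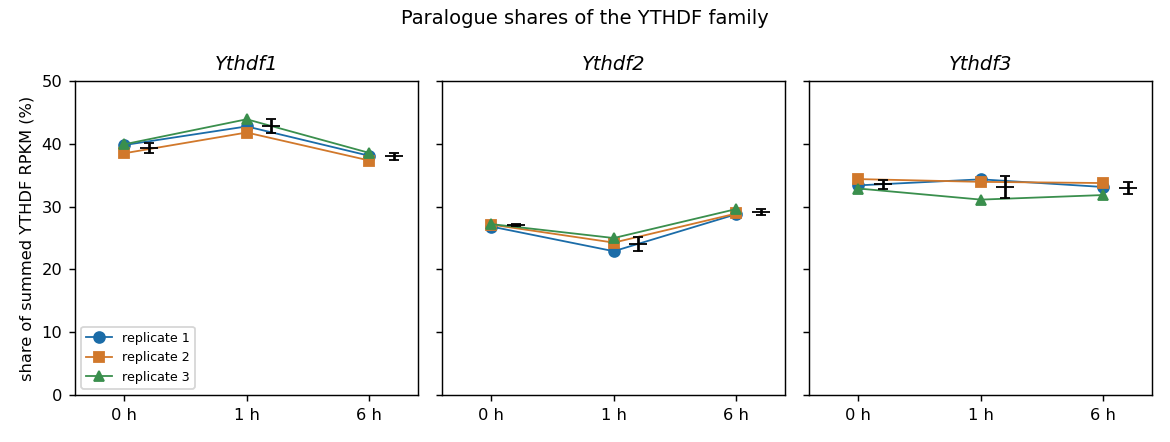
Share (%) of Ythdf1, Ythdf2 and Ythdf3 in their summed RPKM in each library, by time point. Symbols are replicates, and black bars beside them are means ± SD of 3 libraries. The Ythdf2 share was 27.1% at 0 h, 24.0% at 1 h and 29.1% at 6 h, and the Ythdf1 share was highest at 1 h.

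The nuclear reader Ythdc1 was not called in any comparison. This gene of chromosome 5 (86804221 to 86836659, plus strand) had 88.3, 91.3 and 88.7 CPM at 0 h, 85.3, 85.0 and 83.0 CPM at 1 h, and 91.1, 79.6 and 82.1 CPM at 6 h. The 1 h libraries were below those of 0 h, but the differences were as small as -0.08 at 1 h (SE 0.053, adjusted p = 0.439), -0.09 at 6 h against 0 h (SE 0.053, adjusted p = 0.231) and -0.00 at 6 h against 1 h (SE 0.053, adjusted p = 0.964, edgeR). The signs of these small values depended on the processing. Ythdc1 shares 631 exon bases with the lincRNA Gm43055 on the same strand, for which 0 counts were listed in every library.

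The helicase reader Ythdc2 decreased at 6 h. On chromosome 18 (44827746 to 44889724, plus strand), it had 38.6, 32.6 and 51.4 CPM at 0 h, 37.6, 30.2 and 38.5 CPM at 1 h, and 29.6, 25.2 and 34.6 CPM at 6 h. The groups overlapped because the replicates differed in level, with replicate 3 highest and replicate 2 lowest (1.41-fold between their means), yet the 6 h library was the lowest of each replicate. Within replicates Ythdc2 fell by 26.5% from 0 h to 6 h (-0.44, SE 0.068, adjusted p = 0.000278, edgeR), and this call held without any 1 of the 9 libraries (adjusted p of at most 0.00353). It fell by 16.2% from 1 h to 6 h (-0.25, SE 0.068, adjusted p = 0.0112). That call was lost without replicate 1 of 1 h (adjusted p = 0.0710), replicate 1 of 6 h (0.0515) or replicate 2 of 1 h (0.0586). The difference at 1 h was -0.19 (SE 0.068, adjusted p = 0.159), with -0.42 in replicate 3 beside -0.04 and -0.11 in replicates 1 and 2, and it was -0.10 without replicate 3 of either 0 h or 1 h. Without the replicate block neither fall was called (adjusted p = 0.248 and 0.562).

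Hnrnpa2b1, the nuclear protein proposed to bind transcripts whose structure m6A opens, showed a small decrease at 6 h. The gene on chromosome 6 (51460932 to 51469894, minus strand) had 1798, 1627 and 1835 CPM at 0 h, 1612, 1530 and 1805 CPM at 1 h, and 1614, 1412 and 1684 CPM at 6 h. The groups overlapped, and the 6 h library was below the 0 h library in 3 of 3 replicates. It fell by 10.6% (-0.16, SE 0.049, adjusted p = 0.0222, edgeR) from 0 h to 6 h, with differences of -0.09 at 1 h (adjusted p = 0.358) and -0.07 from 1 h to 6 h (adjusted p = 0.289). This call was fragile. It was lost without the replicate block (adjusted p = 0.478), with library totals in place of TMM (0.0507), with GC content and length trends removed (0.0760), and without replicate 1 of 0 h (0.125), replicate 2 of 0 h (0.136), replicate 2 of 6 h (0.104) or replicate 3 of 6 h (0.0599).

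The IGF2BP family behaved differently from the YTH genes, in that its paralogues ranged from near absence to a clear level and its levels differed strongly between replicates. These proteins bind coding and 3′ UTR sequences of growth-related mRNAs, and they are oncofetal genes that are known as targets of the let-7 microRNAs, which accumulate as progenitors differentiate. The mature let-7 microRNAs are shown because their seed (bases 2 to 8, in capitals) defines the site looked for in the reader transcripts, and 9 of 9 mouse family members in the RefSeq table (GRCm38) carry the same seed.
mmu-let-7a-5p: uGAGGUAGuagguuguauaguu
mmu-let-7b-5p: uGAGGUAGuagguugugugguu
mmu-miR-98-5p: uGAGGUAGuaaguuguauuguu
The match to this seed, CTACCTC in the sense strand of the mRNA, was searched in the 3′ UTR of the GENCODE M21 transcript with the longest coding sequence. It occurred 4 times in Igf2bp1, 1 time in Igf2bp2 and 1 time in Igf2bp3. It occurred 0 times in any coding transcript of the other 6 readers. Among tested genes with a 3′ UTR of 0.8 to 1.2 times the same length, 33.2% held a match for the length of Igf2bp1, 12.3% for Igf2bp2 and 13.3% for Igf2bp3, and the share of all tested coding genes was 8.94%. For the lengths of the other 6 readers that share lay between 2.74% (Ythdf1) and 14.9% (Ythdf3), so most genes of such lengths held no match either. The windows below are shown for the 3 paralogues and for Hmga2, a known let-7 target that is described further on, with the match in capitals.
Igf2bp1: agtgctgtgcgaagtaaaCTACCTCaa
Igf2bp2: aaaacacacaaataaaagCTACCTCag
Igf2bp3: acgtgcatttttactcaaCTACCTCag
Hmga2: ggcgccgacattcaatttCTACCTCag
All 4 are on the minus strand of GRCm38, in 3′ UTR exons, at chr11:95961777-95961803 (Igf2bp1), chr16:22059472-22059498 (Igf2bp2), chr6:49086786-49086812 (Igf2bp3) and chr10:120364223-120364249 (Hmga2). A match is a stretch of letters and not a measured site, and let-7 itself was not measured in these mRNA libraries. Hmga1, which also fell at 6 h, held 0 matches by the same transcript rule and at most 1 in any of its coding transcripts. Igf2bp3 holds a match and was not called in any comparison. A part of let-7 in the changes described below was not tested.

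Igf2bp2 was the main IGF2BP paralogue of these cultures, and it decreased at 6 h. The gene lies on chromosome 16 (22059009 to 22163299, minus strand). Its level was 13.1, 13.7 and 62.7 CPM at 0 h, 13.8, 13.8 and 63.2 CPM at 1 h, and 7.78, 8.92 and 42.3 CPM at 6 h in replicates 1, 2 and 3. Replicate 3 was therefore 4.61-fold above the next replicate over the 3 time points, and the groups overlapped. The 6 h library was the lowest in each replicate, by 40.5%, 34.9% and 32.6% in CPM against 0 h in replicates 1, 2 and 3. In the fit with the block, Igf2bp2 fell by 35.7% from 0 h to 6 h (-0.64, SE 0.063, adjusted p = 8.82e-06) and by 37.0% from 1 h to 6 h (-0.67, SE 0.063, adjusted p = 6.12e-06, edgeR). These were the largest changes among the 8 tested readers. Both calls held without any 1 of the 9 libraries and without all libraries of any 1 replicate number (adjusted p of at most 0.000644). They were lost in the fit without the replicate block, where the 4.86-fold range between replicates counts as error (adjusted p = 0.829 and 0.815). At 1 h the difference from 0 h was 0.03 (SE 0.062, adjusted p = 0.838).

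Igf2bp3, on chromosome 6 (49085223 to 49214957, minus strand), was low, with 2.68, 5.89 and 2.52 CPM at 0 h, 2.55, 6.55 and 1.39 CPM at 1 h, and 2.21, 5.21 and 2.54 CPM at 6 h. Here replicate 2 was the highest at each time point, 2.74-fold above replicate 3 on average, whereas replicate 3 was the highest for Igf2bp2. The differences of Igf2bp3 were not called (-0.17 at 1 h, adjusted p = 0.666, and -0.13 at 6 h against 0 h, adjusted p = 0.609), with standard errors of 0.18. It shares 1529 exon bases at its 3′ end with Malsu1 on the opposite strand, which had 10.1 to 16.3 CPM, and the strand setting of the counting is not given in the sources used here. Igf2bp1, on chromosome 11 (95957163 to 96005940, minus strand), had between 0 and 4 counts per library, namely 1, 1 and 0 counts at 0 h, 0, 3 and 1 at 1 h, and 0, 4 and 1 at 6 h. No difference was detectable at this depth and no fold change is given. In the summed RPKM of the family, Igf2bp2 made up 84.2% ± 12.3 at 0 h, 84.5% ± 14.1 at 1 h and 79.8% ± 14.8 at 6 h (mean ± SD, n = 3).

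Genes known as targets or regulators of IGF2BP proteins were examined next to Igf2bp2. Of 9 listed genes (Actb, Myc, Igf2, H19, Cd44, Hmga1, Hmga2, Lin28a and Lin28b) 7 were tested, the Lin28 genes being too low. Of these, 1 was lower at 1 h, 4 were lower at 6 h than at 0 h, and 4 were lower at 6 h than at 1 h, with 0 called higher in each comparison (DESeq2 with the block called 0 higher and 1, 4 and 3 lower). Over all tested genes, 2.14% were called lower at 1 h, 17.5% at 6 h against 0 h and 17.5% at 6 h against 1 h. This list and the other m6A lists below were written with earlier results on m6A genes of these data known. Such counts therefore describe the lists and are not independent of the data. The medians of the IGF2BP list were 0.03, -0.42 and -0.32, beside medians of all tested genes between -0.0009 and 0.0007. The median at 6 h against 0 h was the value of H19, which had few counts and was not called (SE 0.49, adjusted p = 0.553, edgeR). That median was -0.53 by DESeq2 with the block and -0.29 by edgeR without the block. Hmga1 and Hmga2 encode chromatin architectural proteins of stem cells. Hmga2 had 84.2, 36.8 and 47.7 CPM at 0 h, 74.1, 33.7 and 39.0 CPM at 1 h, and 43.1, 15.4 and 14.95 CPM at 6 h. Like Igf2bp2 it was lowest at 6 h in each replicate, and it fell by 1.29 on the log2 scale from 0 h to 6 h (SE 0.10, adjusted p = 1.30e-06). Hmga1 had 65.0, 71.5 and 104.4 CPM at 0 h and 35.5, 43.8 and 69.1 CPM at 6 h, and fell by 0.72 (SE 0.057, adjusted p = 1.30e-06, edgeR). Myc, the growth-promoting transcription factor whose mRNA IGF2BP proteins stabilise, was lower earlier. It had 117.6, 102.4 and 106.9 CPM at 0 h, 89.9, 64.9 and 73.1 CPM at 1 h, and 82.3, 80.2 and 64.5 CPM at 6 h, and fell by 0.53 at both times (SE 0.079, adjusted p = 0.00241 at 1 h and 0.000236 at 6 h). Cd44, a hyaluronan receptor, fell by 0.29 at 6 h against 0 h (adjusted p = 0.00123) and by 0.32 against 1 h (adjusted p = 0.000687), and the imprinted non-coding RNA H19 fell by 1.19 from 1 h to 6 h, at the edge of the threshold (SE 0.44, adjusted p = 0.0496) and on only 2 to 31 counts per library. Without the replicate block, edgeR called 0 genes of this list in each comparison, with 1, 4 and 2 genes at an unadjusted p under 0.05.

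**Figure D3:**
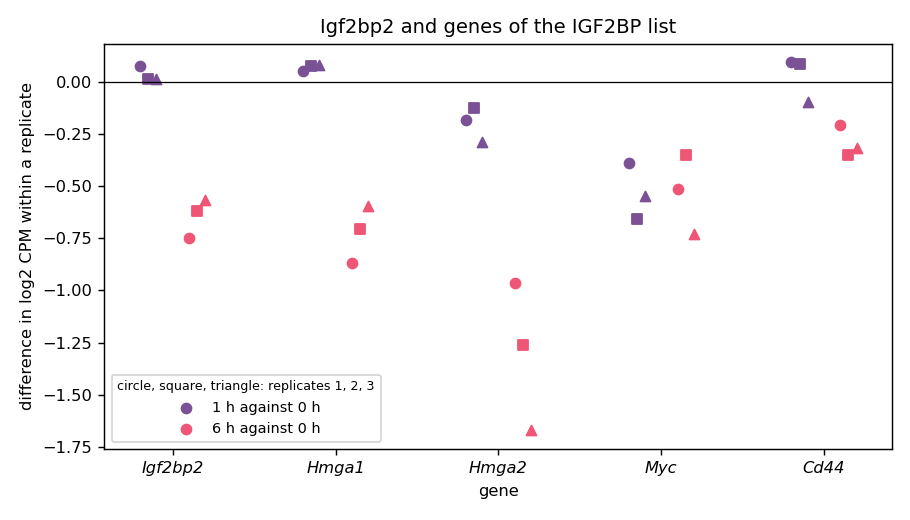
Difference in log2 CPM within each replicate for Igf2bp2 and the called genes Hmga1, Hmga2, Myc and Cd44 of the IGF2BP list, for 1 h and 6 h against the same 0 h library. Symbols are replicates. The 4 list genes shown are those called lower at 6 h against 0 h, so their points below 0 at 6 h largely follow from this choice. The tested list genes Actb, Igf2 and H19 were not called in that comparison and are not shown. Igf2bp2 differs by -0.57 to -0.75 at 6 h, and at 1 h only Myc and Hmga2 have all points below 0.

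Taking the readers as a group, 0 were called higher and 2 lower at 1 h (Ythdf2 and Ythdf3), against 3.51% of all tested genes called in either direction and 2.14% called lower. At 6 h against 0 h, 0 were called higher and 5 lower (Ythdf1, Ythdf3, Ythdc2, Igf2bp2 and Hnrnpa2b1), against 34.9% of all tested genes called and 17.5% called lower. At 6 h against 1 h, 1 was called higher (Ythdf2) and 2 lower (Ythdc2 and Igf2bp2), against 35.6% called, with 18.0% higher and 17.5% lower. The share called at 6 h against 1 h (3 of 8 readers) was close to that background. The medians of the 8 readers were -0.13, -0.16 and -0.04. At 6 h against 0 h all 8 had a fitted difference below 0, the largest being that of Igf2bp2 and the smallest that of Ythdf2. Without the replicate block edgeR called 0, 0 and 1 readers, against 0.0424%, 2.42% and 2.14% of all tested genes called. At an unadjusted p under 0.05 that fit had 2, 2 and 1 readers. No share of all genes was computed at an unadjusted p, so such counts have no background, here and for the gene lists. DESeq2 with the block called 2, 5 and 3 readers. Over all 18858 tested genes it called 929, 6126 and 6285, with 561, 3120 and 3265 of them lower.

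**Figure D4:**
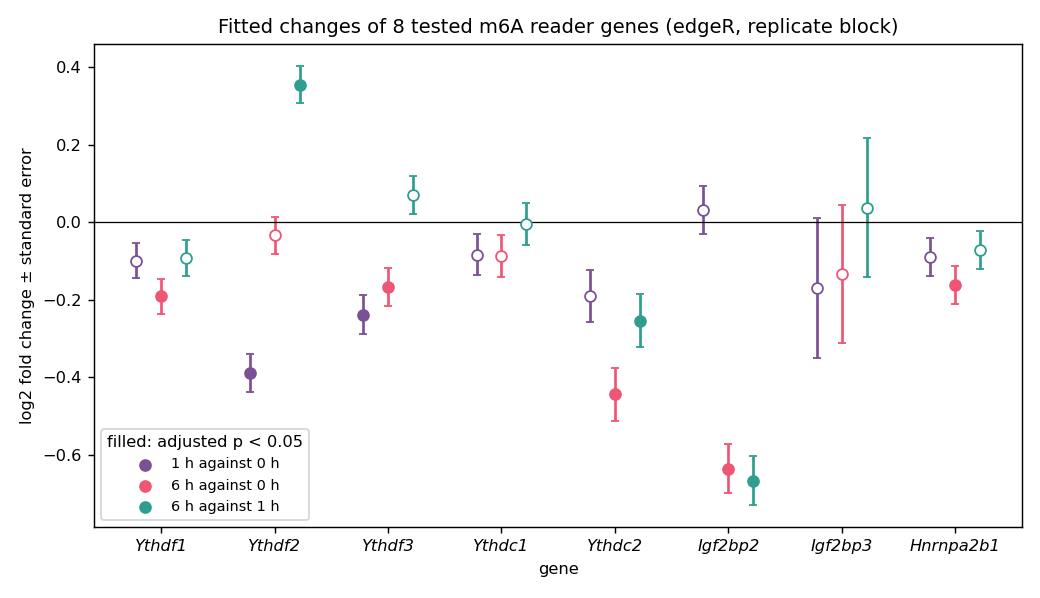
Log2 fold change ± SE from the edgeR fit with the replicate block for the 8 tested readers in the 3 comparisons. Filled points have an adjusted p under 0.05. Ythdf2 fell by 0.39 at 1 h and rose by 0.36 from 1 h to 6 h, and Igf2bp2 had the lowest values at 6 h.

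The genes that place and remove m6A were examined beside the readers. Of 12 writer genes (Mettl3, Mettl14, Wtap, Virma, Zc3h13, Rbm15, Rbm15b, Cbll1, Mettl16, Mettl5, Zcchc4 and Pcif1), 0 were called higher and 2 lower at 1 h, 1 higher and 4 lower at 6 h against 0 h, and 2 higher and 1 lower at 6 h against 1 h. For these and the lists below, the shares of all tested genes called in either direction were 3.51%, 34.9% and 35.6% in the same order, so the 5 and 3 of 12 writers called at 6 h were near or below that background. At 1 h the called writers were Rbm15, an adaptor that brings the complex to RNA (-0.42, SE 0.067, adjusted p = 0.00364), and Mettl14, the RNA-binding partner of the catalytic subunit Mettl3 (-0.30, SE 0.052, adjusted p = 0.00716). Both were again lower at 6 h against 0 h (Rbm15 -0.35, Mettl14 -0.21), as were the ribosomal RNA methyltransferase Mettl5 (-0.48, adjusted p = 0.00371) and Wtap, the scaffold of the complex (-0.23, adjusted p = 0.00465, edgeR). Pcif1, which methylates the adenosine next to the cap, rose by 0.30 (adjusted p = 0.000446). From 1 h to 6 h Pcif1 and Cbll1 rose (0.23 and 0.24) and Mettl5 fell by 0.39. The medians of the writers were -0.08, -0.08 and 0.05. Of the 2 demethylase genes Fto and Alkbh5, 0 were called at 1 h and at 6 h against 0 h (0 and 2 at an unadjusted p under 0.05, and 0 called by DESeq2 with the block), and Alkbh5 fell by 0.14 from 1 h to 6 h (SE 0.049, adjusted p = 0.0450, edgeR).

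The proteins that work with the YTH readers were represented by 19 genes, mainly subunits of the CCR4-NOT deadenylase that Ythdf2 recruits and splicing and export factors that bind Ythdc1. At 1 h edgeR called 0 of them (5 at an unadjusted p under 0.05, and 1 lower by DESeq2 with the block). At 6 h against 0 h, 1 was called higher and 8 lower, and at 6 h against 1 h, 2 higher and 9 lower, against 34.9% and 35.6% of all tested genes called and 17.5% called lower in both comparisons. Among the called partners the largest falls from 0 h to 6 h were those of the cleavage factor Cpsf6 (-0.36, SE 0.051, adjusted p = 0.000144), the poly(A) polymerase Tent2 (-0.28, SE 0.048, adjusted p = 0.000586) and the splicing factor Srsf3 (-0.26, SE 0.061, adjusted p = 0.00513, edgeR). Cnot6, Cnot7, Cnot9, Cnot10 and Srsf10 were also lower, by 0.17 to 0.26, and the export receptor Nxf1 rose by 0.13 (adjusted p = 0.0328). From 1 h to 6 h, Tent2 (-0.25), Cpsf6 (-0.23) and Cnot10 (-0.21) fell the most among those called. Meioc, a partner of Ythdc2, had larger fitted values that were not called (-0.35 at 6 h against 0 h, SE 0.43, adjusted p = 0.571, and -0.57 at 6 h against 1 h, SE 0.41, adjusted p = 0.308). The medians of the list were -0.07, -0.11 and -0.14. Of 5 other proposed m6A binders (Hnrnpc, Rbmx, Fmr1, Prrc2a and Elavl1), edgeR called 0 at 1 h (2 at an unadjusted p under 0.05, and 0 called by DESeq2 with the block), 1 higher and 2 lower at 6 h against 0 h, and 2 higher and 1 lower at 6 h against 1 h, with medians of -0.04, -0.06 and -0.03. Prrc2a rose by 0.23 from 0 h to 6 h (adjusted p = 0.00771), and Elavl1 and Fmr1 fell by 0.18 and 0.17 (adjusted p = 0.00664 and 0.0298). From 1 h to 6 h Prrc2a and Rbmx rose by 0.27 and 0.23 and Elavl1 fell by 0.19. Without the replicate block edgeR called 1 gene of these 4 lists together, namely Tent2, which was lower at 6 h than at 0 h.

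The genes whose profile over the 9 libraries was most like that of each reader are given as a description. The measure was Pearson's r of log2 CPM after the mean of each replicate number had been subtracted, over the 13605 genes whose mean reached 1 CPM, and the points share their libraries and time points. For Ythdf2, Dctn4 (r = 0.994) and Esco1 (0.989) were among the closest genes. For Igf2bp2 they were Chrm3 (0.999), Itga7 (0.998) and Sf3b3 (0.998), and for Hnrnpa2b1 the SR protein genes Srsf5 (0.997) and Srsf7 (0.994) came first, followed by Mrpl49 (0.991). Ythdf1 was closest to Lpar2 (0.996), Zfp946 (0.994) and Cul2 (0.993), Ythdf3 to Nufip2 (0.992), Smad5 (0.989) and Kpna4 (0.988), and Ythdc2 to Spopl (0.992), Fancd2 (0.990) and Relch (0.990). Igf2bp3 was closest to Tfdp2 (0.985), Ino80d (0.984) and Socs7 (0.983), and Ythdc1 to the low-level Ager (0.981), Osgepl1 (0.965) and Gm5518 (0.959). Among the readers themselves, the highest value was that of Ythdf1 with Ythdc2 (0.939) and the lowest that of Ythdf2 with Igf2bp2 (-0.477).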

How the data were processed

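RNA-seq was analysed in 9 libraries, 3 at each of 0 h, 1 h and 6 h. The deposited values are raw counts per Ensembl gene, which the authors made from paired-end reads with STAR 2.5.3a on mm10 (GRCm38). The submitters' processing notes also name FastQC and DESeq2 1.22.1. The counting strand is not given in the sources used here. Of 48526 genes, 48144 were matched to GENCODE M21, which supplied symbols, positions and exon lengths.

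Counts were fitted in R 4.3.3 with edgeR 4.0.16 (filterByExpr with a minimum count of 10 and a minimum total of 15, TMM, glmQLFit, glmQLFTest), with all 9 libraries together and the replicate number as a block. P-values were adjusted over 18858 genes by the Benjamini-Hochberg method, with a threshold of 0.05. The numbers come from the labels. After subtraction of time point means, libraries with the same number correlated at 0.733 to 0.800 (9 pairs) and others at -0.462 to -0.314 (18 pairs). The biological coefficient of variation was 0.0627 with the block and 0.277 without. The lowest chi-square per degree of freedom between libraries was 12.5, so no library was entered again under another name. The fit was tested on simulated data.

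The members and gene lists were chosen with earlier results of these data known. All 9 readers are named, and in each list up to 3 called genes per comparison with the largest absolute change, and for each tested reader the 3 genes with the highest correlation (log2 CPM with a prior count of 2), of which 1 is not reported here. The other called genes of a list were named after their values were seen. Alternatives were no block, DESeq2 1.42.0 with and without the block, RLE factors, library totals, no filter, a mean of at least 1 CPM, only the 6 libraries compared, GC content and length trends removed (splines with 4 degrees of freedom), a threshold of 0.01, and leaving out each library or replicate number. Summaries used Python 3.11.15 (pandas 2.3.3 and numpy 2.4.6), and plots used matplotlib 3.10.9.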

Additional observations from a re-analysis of the deposited data

How the results depend on the processing

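Of 504 alternative values for the 8 tested readers, 441 kept the direction and the side of the threshold, 43 kept the direction and lost the call, and 20 had the opposite sign. Values not called in the main fit had no call to lose, so these totals overstate how stable the calls were. The call of Hnrnpa2b1 at 6 h against 0 h held in 5 of 9 fits without 1 library and 1 of 3 without a replicate number. For Ythdf3 at 1 h these were 5 of 9 and 0 of 3. The fit without the replicate block called 0 readers at 1 h, 0 at 6 h against 0 h and 1 at 6 h against 1 h. DESeq2 without the block called 1 in each of these comparisons, beside 99, 1742 and 1695 of all 18858 tested genes. With the block, an adjusted p under 0.01 left 1 call at 1 h and 3 at 6 h against 0 h, and the removal of GC content and length trends left 3 at 6 h against 0 h. When libraries or replicate numbers were left out, 1 to 2 readers were called at 1 h, 2 to 5 at 6 h against 0 h and 2 to 3 at 6 h against 1 h. The 2 and 3 calls at 6 h against 0 h came without replicate 2 (2 calls), and without replicate 1, replicate 2 of 0 h or replicate 2 of 6 h (3 calls each). At 1 h the single call came without any 1 of the replicate numbers, replicate 1 or 2 of 1 h, or replicate 2 or 3 of 0 h. Over all tested genes, the fits with libraries or replicate numbers left out called 184 to 886 genes at 1 h. They called 3656 to 8051 at 6 h against 0 h and 4132 to 6657 at 6 h against 1 h. With all libraries 661, 6581 and 6710 genes were called. All 3 lowest counts came without replicate 2, so calls were lost over all genes as well. The rise of Ythdf2 from 1 h to 6 h was called in all alternatives run, and its fall at 1 h in all except edgeR without the block.

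The changes of sign concerned values that were not called. Ythdc1 was 0.024 at 1 h and 0.0075 at 6 h against 0 h with GC content and length trends removed, and at 6 h against 1 h it was 0.031 with library totals, 0.0057 with no filter, 0.0062 with a minimum mean of 1 CPM and -0.062 to 0.054 with libraries left out. Igf2bp3 at 6 h against 1 h was -0.076 without the block and -0.087 with DESeq2 without the block. With libraries left out Igf2bp3 ranged from -0.44 to 0.10 at 1 h, from -0.34 to 0.013 at 6 h against 0 h and from -0.28 to 0.33 at 6 h against 1 h, Igf2bp2 at 1 h from -0.0055 to 0.068, and Ythdf2 at 6 h against 0 h from -0.068 to 0.0021. The cause was not tested. From counts without division by exon length, Ythdf1 made up 30.1%, 33.1% and 28.9% of the YTHDF genes at the successive time points, Ythdf2 28.5%, 25.6% and 30.6%, and Ythdf3 41.4%, 41.3% and 40.5%, so the order of the genes depends on this choice and the order of the time points within Ythdf1 and Ythdf2 does not. Depth limits Igf2bp1 (0 to 4 counts) and Igf2bp3 (100 to 598 counts).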
